A study of Mus musculus with 18 samples.

Results

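The 10 genes described here encode costimulatory and checkpoint molecules of macrophages: Cd274, Pdcd1lg2, Cd80, Cd86, Icosl, Cd40, Lgals9, Havcr2, Vsir and Lilrb4a. They were taken as a list of named genes, drawn up with earlier results of these data known, and all 10 were among the 23102 genes measured. Total RNA came from J774 cells, an established mouse macrophage line, grown in DMEM without phenol red and harvested 24 h after treatment. The vehicle group received no particles and no estradiol, and the estradiol group received 17-β estradiol at 2 µg/mL. The talc and TiO2 (titanium dioxide) groups received 10 µg of that particle per well with vehicle, and the talc plus estradiol and TiO2 plus estradiol groups received the particle with the same dose of estradiol. Each of the 6 groups had 3 Affymetrix arrays. All cells belong to 1 line. Whether the 3 arrays of each group stand for separate cultures is not stated, and a p-value here covers the spread between these arrays, which could be technical. The labels number the arrays through the groups in order, so array order and group cannot be told apart.

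T cells respond to an antigen on a macrophage only when a second signal reaches them, and the molecules studied here give that signal or withhold it. Cd80 and Cd86 (B7-1 and B7-2) bind CD28, which activates the T cell, and CTLA-4, which restrains it, while Icosl (ICOS ligand) binds ICOS. Cd274 (PD-L1) and Pdcd1lg2 (PD-L2) bind the inhibitory receptor PD-1. Cd40 is the receptor through which T cells activate macrophages, and it signals through TRAF adaptors to NF-kB. Lgals9 (galectin-9) is a ligand of Havcr2 (TIM-3), an inhibitory receptor also carried by myeloid cells. Vsir (VISTA) is an inhibitory molecule of the B7 family abundant on myeloid cells, and Lilrb4a is an inhibitory receptor of the leukocyte immunoglobulin-like family.

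Promoter sequences are shown for the 5 genes that changed with talc, since these are the sequences that precede the transcripts the results turn on. RefSeq's table for the assembly GRCm38.p6 held a promoter window for 7 of the 10 genes, and the 250 bases before the annotated start are printed 5′ to 3′ on the gene's strand. The window of Cd274 precedes a start that lies inside the gene's span in RefSeq's gene table, downstream of the first base of that span, so other starts of Cd274 are not covered. Capitals mark matches to 5 motifs searched on both strands.
Cd274, chr19:29367188-29367437, plus strand: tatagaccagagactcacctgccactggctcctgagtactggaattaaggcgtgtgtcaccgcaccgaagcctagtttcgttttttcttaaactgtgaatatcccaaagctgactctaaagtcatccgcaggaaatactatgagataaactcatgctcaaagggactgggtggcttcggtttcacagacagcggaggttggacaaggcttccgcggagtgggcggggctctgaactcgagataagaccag
Icosl, chr10:78069118-78069367, plus strand: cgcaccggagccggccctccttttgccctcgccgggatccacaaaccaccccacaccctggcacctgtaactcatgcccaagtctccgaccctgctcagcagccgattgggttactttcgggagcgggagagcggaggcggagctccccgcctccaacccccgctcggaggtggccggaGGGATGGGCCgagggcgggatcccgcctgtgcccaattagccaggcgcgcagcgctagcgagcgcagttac
Lgals9, chr11:78984925-78985174, minus strand: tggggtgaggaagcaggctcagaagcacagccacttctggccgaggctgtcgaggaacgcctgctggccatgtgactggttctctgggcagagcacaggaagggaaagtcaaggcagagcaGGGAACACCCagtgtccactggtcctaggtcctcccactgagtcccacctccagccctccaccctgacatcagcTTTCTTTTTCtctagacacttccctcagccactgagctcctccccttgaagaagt
Havcr2, chr11:46454681-46454930, plus strand: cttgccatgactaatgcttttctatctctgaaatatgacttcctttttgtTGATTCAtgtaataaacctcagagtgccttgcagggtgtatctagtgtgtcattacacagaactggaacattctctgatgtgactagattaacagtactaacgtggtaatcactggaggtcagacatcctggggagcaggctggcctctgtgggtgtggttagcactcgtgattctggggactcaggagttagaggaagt
Vsir, chr10:60346601-60346850, plus strand: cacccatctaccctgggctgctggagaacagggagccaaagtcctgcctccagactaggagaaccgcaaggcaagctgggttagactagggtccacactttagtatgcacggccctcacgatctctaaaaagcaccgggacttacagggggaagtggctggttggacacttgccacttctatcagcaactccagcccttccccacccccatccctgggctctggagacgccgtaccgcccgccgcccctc
The NF-kB motif was GGGA and CC separated by 4 bases of any kind, and it occurred in 17.6% of the 32851 promoter windows of the same length. Icosl held a match 71 bases before the start and Lgals9 held one at 129 bases. Pdcd1lg2 and Cd80, which did not pass with talc and whose windows are not shown, held matches at 244 and 210 bases. The interferon-stimulated response element, searched as GAAA and GAAA separated by 2 bases, was in 2.98% of windows, and Lgals9 held a match 55 bases before the start. The AP-1 motif TGANTCA was in 6.75% of windows, and Havcr2 held a match 200 bases before the start. Cd80 also held one, at 42 bases. Cd274 and Vsir held no match in these windows. The STAT motif TTCNNNGAA, in 7.02% of windows, and the estrogen response element, searched as GGTCA and TGACC separated by 3 bases and found in 0.0639%, matched in none of the 7 windows. A match is a description of these letters. Cd274 and Pdcd1lg2 are neighbours on chromosome 19, Cd80 and Cd86 both lie on chromosome 16, and Icosl, Vsir and Lilrb4a lie on chromosome 10.

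A gene's level is the log2 intensity averaged over its probe sets, and array medians lay between 45.6 and 48.0 intensity units. The upper quartile of intensity was 222, 232 and 233 in the arrays given TiO2 plus estradiol, against 238 or more in every other array. The cells carried the markers of their label: the 9 macrophage markers measured (among them Csf1r, Cd68 and Itgam) all lay above the median gene, at a median percentile of 97.8. Their summed level, as a mean over the list, ranged from 9.96 to 10.0 log2 units in vehicle arrays, 9.89 to 9.91 with estradiol, 9.78 to 9.88 with talc, 9.89 to 9.95 with talc plus estradiol, 9.80 to 9.98 with TiO2 and 9.82 to 9.85 with TiO2 plus estradiol. With talc over both arms 1 of the 9 rose and 2 fell. None of the 6 T cell, 5 B cell or 6 granulocyte markers measured lay above the median gene. Of the dendritic cell, fibroblast and epithelial markers, 2 of 8, 2 of 6 and 2 of 5 did. The part of these markers in the results was not tested. Of the members, 9 lay above the median gene in mean level, and Pdcd1lg2, at percentile 22.2, lay below it, though such ranks also depend on the probes.

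Talc raised Cd274 and lowered Icosl, Lgals9, Havcr2 and Vsir. Averaged over cells with and without estradiol, 6 talc arrays against 6 arrays without particles, 1 of the 10 genes rose and 4 fell at an adjusted p under 0.05 (limma, Benjamini-Hochberg over all genes, two-sided). Across all genes 14.8% were called in that comparison, 7.92% higher and 6.87% lower. The median change of the 10 genes was 0.18 log2 units, and that of all genes was 0.01. Of the 10 changes 6 were positive, but 4 of the 5 called changes were falls, so the median does not describe the called genes. Without estradiol, talc against vehicle, 1 rose and 4 fell, against 8.46% of all genes called (3.94% higher and 4.52% lower). With estradiol, talc plus estradiol against estradiol, 1 rose and 3 fell, against 7.13% of all genes called (4.13% higher and 3% lower). The arms share no arrays with each other, while the average over both arms uses the arrays of each.

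**Figure D1:**
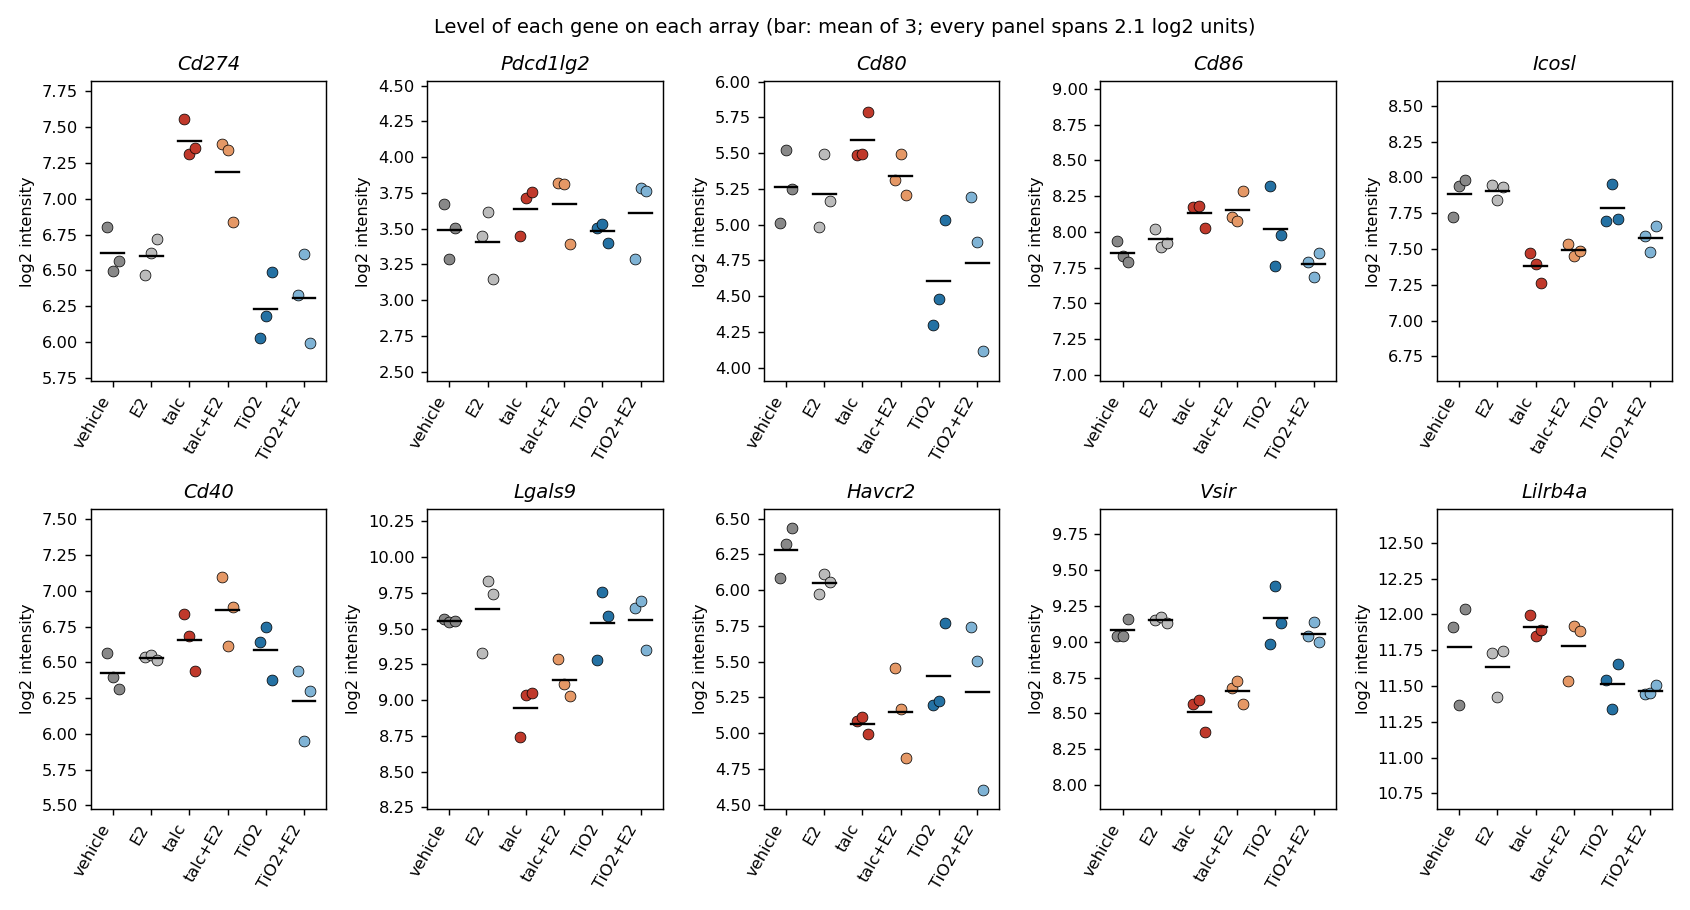
The log2 intensity of each of the 10 genes is plotted for every array in the 6 groups, where E2 is estradiol, points are arrays and bars are means of 3. Every panel spans the same number of log2 units on its own range; the talc arrays of Cd274 lie above, and those of Icosl, Lgals9, Havcr2 and Vsir below, the arrays without particles.

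Cd274, the ligand that restrains T cells through PD-1, was 6.81, 6.49 and 6.56 log2 units in the vehicle arrays and 6.47, 6.62 and 6.72 with estradiol. It was 7.56, 7.31 and 7.35 with talc and 7.38, 7.34 and 6.84 with talc plus estradiol. All 6 talc arrays lay above all 6 arrays without particles, and the lowest of them was talc plus estradiol replicate 3. The rise was 0.79 ± 0.17 (SE) log2 units without estradiol, or 1.72-fold, with an adjusted p of 0.0077 in limma. With estradiol it was 0.59 ± 0.17, with an adjusted p of 0.0499. Averaged over both arms it was 0.69 ± 0.12 (adjusted p = 0.00076), and that call held under all 25 alternative settings, with adjusted p from 8.5e-05 to 0.0276. The call with estradiol was lost in 17 of 25, and leaving out any of the 3 estradiol arrays or talc plus estradiol replicates 1 or 2 gave adjusted p from 0.0736 to 0.19. With TiO2 Cd274 was 6.03, 6.18 and 6.49, and with TiO2 plus estradiol 6.33, 6.61 and 5.99. In the order of group means the only gap between neighbours without overlapping arrays was from vehicle, at 6.62 ± 0.16 (SD, n = 3), to talc plus estradiol, at 7.19 ± 0.30.

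Pdcd1lg2, the other PD-1 ligand and the neighbouring gene, gave no such difference. Its group means lay between 3.40 ± 0.24 with estradiol and 3.67 ± 0.24 with talc plus estradiol (SD, n = 3), with arrays from 3.14 to 3.82 and overlap in every comparison. Averaged over both arms the talc difference was 0.21 log2 units, with a 95% interval from -0.04 to 0.46 and an adjusted p of 0.298 in limma. The gene was dim, at a mean level of 3.55 log2 units and percentile 22.2. The T cell markers averaged from 3.61 with TiO2 to 3.81 with TiO2 plus estradiol. A response at so low a level could go unseen.

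Cd80 and Cd86, the ligands of CD28 and CTLA-4, did not pass the test with talc. Cd80 was 5.01, 5.52 and 5.25 in vehicle arrays and 5.49, 5.49 and 5.79 with talc, and the groups overlapped. The talc difference of Cd80 over both arms was 0.23 ± 0.17 log2 units (adjusted p = 0.477, limma), with a 95% interval from -0.13 to 0.58. Cd86 was 7.93, 7.83 and 7.79 in vehicle arrays and 8.02, 7.90 and 7.92 with estradiol. It was 8.18, 8.18 and 8.03 with talc and 8.10, 8.08 and 8.28 with talc plus estradiol. All 6 talc arrays of Cd86 lay above the 6 without particles, by a small margin. The difference was 0.24 ± 0.09 log2 units with an adjusted p of 0.0728, and 5 of 25 alternatives brought it under the threshold, with adjusted p over all of them from 0.0256 to 0.954.

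Icosl, the ligand of the costimulatory receptor ICOS, fell. It was 7.72, 7.94 and 7.98 in vehicle arrays, 7.95, 7.85 and 7.93 with estradiol, 7.47, 7.39 and 7.27 with talc, and 7.54, 7.45 and 7.48 with talc plus estradiol. Every talc array lay below every array without particles. Without estradiol the change was -0.50 ± 0.10 log2 units, to 0.71 times the vehicle level (adjusted p = 0.0047, limma), and with estradiol -0.42 ± 0.10 (adjusted p = 0.019). The average over both arms, -0.46 ± 0.07 (adjusted p = 0.00027), held under all 25 alternatives. The call with estradiol was lost without estradiol replicate 1 or 3 or talc plus estradiol replicate 2 or 3, with adjusted p from 0.0626 to 0.0713. With TiO2 Icosl was 7.70, 7.95 and 7.71, and with TiO2 plus estradiol it was 7.59, 7.48 and 7.66, the only neighbouring groups in its order whose arrays did not overlap.

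Cd40 was 6.57, 6.40 and 6.31 in vehicle arrays, 6.54, 6.55 and 6.52 with estradiol, 6.84, 6.68 and 6.44 with talc, and 7.10, 6.62 and 6.89 with talc plus estradiol. The talc arrays overlapped those of vehicle but lay above those of estradiol in the estradiol arm. The average talc difference was 0.28 ± 0.11 log2 units, with an adjusted p of 0.0982 in limma, and did not pass. The probe sets of Cd40 disagreed: 9 had a positive talc difference and 4 a negative one, from -0.25 to 0.64. Mean levels ran from 5.19 to 8.10 log2 units in the 9 and from 4.72 to 6.44 in the 4. When a gene's level was taken as the median of its probe sets on each array in place of their mean, the talc difference was -0.02. With the brightest probe set alone the talc difference was 0.59. Without talc plus estradiol replicate 2 it was 0.34 with an adjusted p of 0.0444. Over all alternatives the adjusted p ran from 0.0388 to 0.967.

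Lgals9 and its receptor Havcr2 both fell with talc. Lgals9 was 9.57, 9.55 and 9.55 in vehicle arrays, 9.33, 9.84 and 9.74 with estradiol, 8.74, 9.04 and 9.05 with talc, and 9.29, 9.12 and 9.03 with talc plus estradiol. Its highest talc-treated array, talc plus estradiol replicate 1, lay just below its lowest array without particles, estradiol replicate 1. The change was -0.61 ± 0.15 log2 units without estradiol (adjusted p = 0.016, limma), and without talc replicate 1 it was -0.51 with an adjusted p of 0.086, within a range from 0.00295 to 0.086 over the alternatives. With estradiol it was -0.49 ± 0.15 and did not pass (adjusted p = 0.0594), although the call was gained without estradiol replicate 1 (adjusted p = 0.0218) and under 5 other alternatives. The average over both arms was -0.55 ± 0.11 (adjusted p = 0.0015) and held under all 25 alternatives. TiO2 arrays of Lgals9 were 9.28, 9.76 and 9.59, and those of TiO2 plus estradiol 9.64, 9.69 and 9.35, inside the range of arrays without particles but for TiO2 replicate 1.

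Havcr2 had the largest change of the 10 genes with talc. It was 6.09, 6.32 and 6.43 in vehicle arrays and 5.97, 6.11 and 6.06 with estradiol, and fell to 5.09, 5.11 and 4.99 with talc and 5.45, 5.17 and 4.83 with talc plus estradiol. Every array without particles lay above every array with talc. The change was -1.22 ± 0.23 log2 units without estradiol, to 0.43 times the vehicle level (adjusted p = 0.0028, limma), and -0.90 ± 0.23 with estradiol (adjusted p = 0.0254). Averaged over both arms it was -1.06 ± 0.16 (adjusted p = 0.00023), and this held under all 25 alternatives. With estradiol the call was lost without any of the 3 estradiol arrays, or talc plus estradiol replicate 2 or 3, with adjusted p from 0.0606 to 0.129. With the median of probe sets the change with estradiol was -0.57 (adjusted p = 0.33), and with the brightest probe set it was not called (adjusted p = 0.227).

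Vsir, the VISTA gene, fell in both arms. It was 9.04, 9.04 and 9.16 in vehicle arrays, 9.15, 9.17 and 9.13 with estradiol, 8.56, 8.60 and 8.37 with talc, and 8.68, 8.72 and 8.56 with talc plus estradiol. All 6 talc arrays lay below all 12 other arrays, of which the TiO2 arrays were 8.99, 9.39 and 9.13 and those of TiO2 plus estradiol 9.04, 9.13 and 8.995. The change was -0.57 ± 0.11 log2 units without estradiol (adjusted p = 0.0024, limma) and -0.49 ± 0.11 with it (adjusted p = 0.0086). The average, -0.53 ± 0.08 or 0.69 times the level without particles, had an adjusted p of 9.2e-05. The average and the change without estradiol were called under all 25 alternatives, and the change with estradiol lost its call without talc plus estradiol replicate 3 (adjusted p = 0.0506; 0.299 at most, with the brightest probe set). In RNA from whole cultures, fewer cells expressing a gene and less RNA per cell cannot be told apart.

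Lilrb4a, at the bright end of the arrays, showed no talc difference beyond its spread. It was 11.91, 11.37 and 12.04 in vehicle arrays, 11.73, 11.43 and 11.74 with estradiol, 11.997, 11.85 and 11.89 with talc, and 11.53, 11.92 and 11.89 with talc plus estradiol. The groups overlapped, and the average talc difference was 0.14 log2 units with a 95% interval from -0.09 to 0.38 (adjusted p = 0.507, limma). Lilr4b, its neighbour and close paralogue, rose by 0.38 ± 0.10 (adjusted p = 0.0183). The 2 genes are similar in sequence and a probe set annotated to both was left out of both values, so how signal divides between them is uncertain.

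The talc effect on these genes did not differ detectably between the arms. The interaction of talc with estradiol was called for 0 of 10 genes and for 0% of all genes in limma, and at an unadjusted p under 0.05 for 0 of 10 and 6.32% of all. Its largest value was 0.32 ± 0.33 log2 units, for Havcr2 (adjusted p = 0.921). The 95% intervals of the 10 interactions together reached from -0.91, for Cd80, to 1.01, for Havcr2. For Cd274 (-0.72 to 0.32) and Lgals9 (-0.33 to 0.57) the interval held a difference as large as the gene's average talc change. For Icosl (-0.22 to 0.40), Vsir (-0.24 to 0.39) and Havcr2 (-0.37 to 1.01) it did not. Smaller differences lay within the intervals of these genes.

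**Figure D2:**
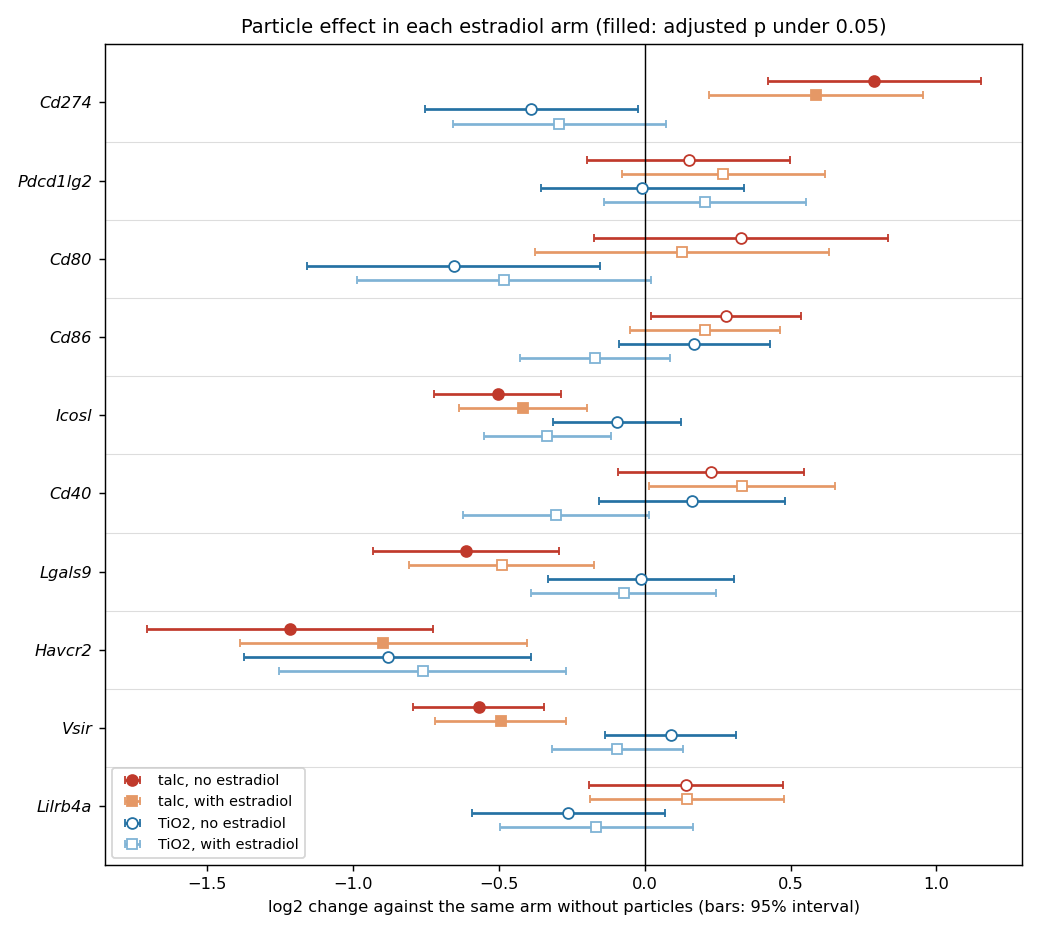
The log2 change of each gene with talc or TiO2 against the same arm without particles is drawn with its 95% interval from limma; circles are without estradiol, squares with estradiol, and filled symbols passed at an adjusted p under 0.05. The talc changes of Cd274 are positive in both arms and those of Icosl, Lgals9, Havcr2 and Vsir negative, while no TiO2 change passed.

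With TiO2 none of the 10 genes passed, in comparisons where almost no gene did. Called were 0% of all genes without estradiol, 0.00433% with estradiol and 0% averaged over both arms (limma), while 8.16%, 8.91% and 8.94% had an unadjusted p under 0.05. Among the 10 genes 3, 2 and 4 had such a p in those comparisons. Havcr2 was 5.20, 5.22 and 5.77 with TiO2 and 5.74, 5.50 and 4.61 with TiO2 plus estradiol. All 6 of these arrays lay below the 6 without particles; arrays did not overlap, in either direction, for 1 of the 10 genes and for 0.558% of all genes. The difference was -0.82 ± 0.16 log2 units over both arms, with an adjusted p of 0.221. It was -0.65 (adjusted p = 0.293) without TiO2 plus estradiol replicate 3, the array with the lowest upper quartile and the lowest value. Over the alternatives it ran from -0.94 to -0.65, with adjusted p from 0.0668 to 0.53. The TiO2 and talc comparisons use the same arrays without particles.

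Cd80 with TiO2 was 4.30, 4.48 and 5.04, and with TiO2 plus estradiol 5.20, 4.88 and 4.12, against 4.98, 5.49 and 5.16 with estradiol alone. The average difference was -0.57 ± 0.17 log2 units (adjusted p = 0.339, limma), and -0.42 without TiO2 plus estradiol replicate 3 (adjusted p = 0.515; range over the alternatives 0.139 to 0.676). Cd274 gave -0.34 ± 0.12 (adjusted p = 0.411) and Icosl -0.21 ± 0.07 (adjusted p = 0.387). The Icosl difference was -0.33 ± 0.10 with estradiol (adjusted p = 0.405) and -0.09 ± 0.10 without it (adjusted p = 0.86). Average differences of the other 6 genes lay between -0.21, for Lilrb4a, and 0.10, for Pdcd1lg2. Arrays did not overlap for 2 of the 10 genes without estradiol and for 4 with it, against 12.4% and 14.2% of all genes. The interaction of TiO2 with estradiol was called for none of the 10 and for 0% of all genes in limma; Cd40, at -0.46 ± 0.21 (adjusted p = 0.61), was the single gene with an unadjusted p under 0.05, against 8.05% of all genes.

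Set against each other at equal mass per well, the particles differed for 5 of the 10 genes without estradiol, where 9.96% of all genes were called (4.61% higher and 5.35% lower with talc). Cd274 was 1.18 ± 0.17 log2 units higher with talc than with TiO2 (adjusted p = 0.00032, limma) and Cd80 0.99 ± 0.24 higher (adjusted p = 0.0134). Vsir was lower by a change of -0.66 ± 0.11 (adjusted p = 0.00072), Lgals9 by -0.60 ± 0.15 (adjusted p = 0.0166) and Icosl by -0.41 ± 0.10 (adjusted p = 0.0174). Havcr2, low with both particles, did not pass, at -0.33 ± 0.23 (adjusted p = 0.442, 95% interval from -0.83 to 0.16). The Cd274 and Vsir calls held under all 25 alternatives. Cd80 lost its call without talc replicate 3 or TiO2 replicate 1 or 2, Icosl without talc replicate 3 or TiO2 replicate 2, and Lgals9 without talc replicate 1 or TiO2 replicate 2 or 3, with adjusted p from 0.052 to 0.0901. The median of probe sets ended the Cd80 (adjusted p = 0.0923) and Lgals9 (0.14) calls, the brightest probe set those of Cd80, at 0.59 (adjusted p = 0.169), and Lgals9 (0.0635), and a fit of only these arrays those of Icosl (0.117) and Lgals9 (0.0683). These values use the same talc arrays as talc against vehicle.

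With estradiol the particles differed for 3 of the 10 genes, where 9.53% of all genes were called (6.66% higher and 2.87% lower with talc). Cd274 was 0.88 ± 0.17 log2 units higher with talc plus estradiol (adjusted p = 0.0041, limma), and Cd40 was 0.64 ± 0.15 higher (adjusted p = 0.0132), its TiO2 plus estradiol arrays being 6.44, 5.95 and 6.30. Vsir was lower, at -0.40 ± 0.11 (adjusted p = 0.024). Cd86, at 0.38 ± 0.12 with TiO2 plus estradiol arrays of 7.79, 7.69 and 7.85, did not pass (adjusted p = 0.0612). Of the genes lowered by talc, Lgals9 did not pass here, at -0.42 ± 0.15 (adjusted p = 0.0943). Icosl, at -0.08 ± 0.10 (adjusted p = 0.684), and Havcr2, at -0.13 ± 0.23 (adjusted p = 0.786), had overlapping arrays and did not pass. The Cd274 difference was 0.72 without TiO2 plus estradiol replicate 3 (adjusted p = 0.0235), and its call was lost with the median of probe sets, at 0.53 (adjusted p = 0.361), and in a fit of only these arrays (0.0545). The Cd40 call was lost without talc plus estradiol replicate 1 or TiO2 plus estradiol replicate 2. The Vsir call was lost without talc plus estradiol replicate 1 or 3 or TiO2 plus estradiol replicate 1 or 2, and the adjusted p in these cases of left-out arrays ran from 0.0541 to 0.107. With the brightest probe set the Vsir difference was -0.00035 (adjusted p = 0.999), and its call was also lost with array medians subtracted (0.0596) and in a fit of only these arrays (0.0888). The Cd40 call was also lost with quantile normalization (adjusted p = 0.0569), the median (0.139) or the brightest probe set (0.149), and a fit of only these arrays (0.0845). Arrays did not overlap for 7 of the 10 genes in each of the comparisons between particles, against 26.4% of all genes without estradiol and 27.8% with it. Against the arms without particles, talc arrays did not overlap for 6 genes without estradiol and 7 with it, against 26.2% of all genes in each, and for 6 over both arms, against 11%.

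Estradiol changed none of the 10 genes by the test. In limma 0 of 10 were called for estradiol against vehicle, 0 of 10 when it was added to talc, 0 of 10 when it was added to TiO2 and 0 of 10 on average over particles, 9 arrays against 9. Of all genes 0%, 0%, 0.00866% (0.00433% in each direction) and 0% were called, and 4.87%, 6.58%, 13% and 5.58% had an unadjusted p under 0.05. Of the 10 genes 0, 0, 1 and 0 had such a p, the 1 being Cd40 when estradiol was added to TiO2, at -0.36 ± 0.15 log2 units (adjusted p = 0.339). The average estradiol difference ran from -0.11 log2 units for Lilrb4a to 0.10 for Lgals9. The 95% intervals of the 10 genes together reached from -0.37, for Havcr2, to 0.28, for Lgals9, which bounds the average difference at this number of arrays. Cd274, for example, was 6.62 ± 0.16 with vehicle and 6.60 ± 0.12 with estradiol (SD, n = 3).

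Single probe sets of the 5 genes that changed with talc mostly moved together. Of the 7 probe sets of Cd274 all had a positive average talc difference, from 0.26 to 1.14 log2 units, and 4 passed on their own in limma. All 8 of Icosl and all 11 of Lgals9 were negative, with 4 and 6 passing. For Havcr2 9 of 10 were negative, from -1.61 to 0.03, with 4 passing, and for Vsir 9 of 10, with 7 passing. Cd86 had 13 of 14 positive and 2 passing, and Lilrb4a 4 of 4 positive and none passing. In the arm without estradiol the median of probe sets in place of the mean ended the calls of Cd274 (adjusted p = 0.143) and Lgals9 (adjusted p = 0.0753). There the brightest probe set alone ended those of Cd274 (adjusted p = 0.137), Icosl (adjusted p = 0.07) and Havcr2 (adjusted p = 0.147). Over all alternatives these adjusted p ran from 0.00158 to 0.143 for Cd274, 0.00295 to 0.086 for Lgals9, 0.000915 to 0.07 for Icosl and 0.000238 to 0.147 for Havcr2.

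**Figure D3:**
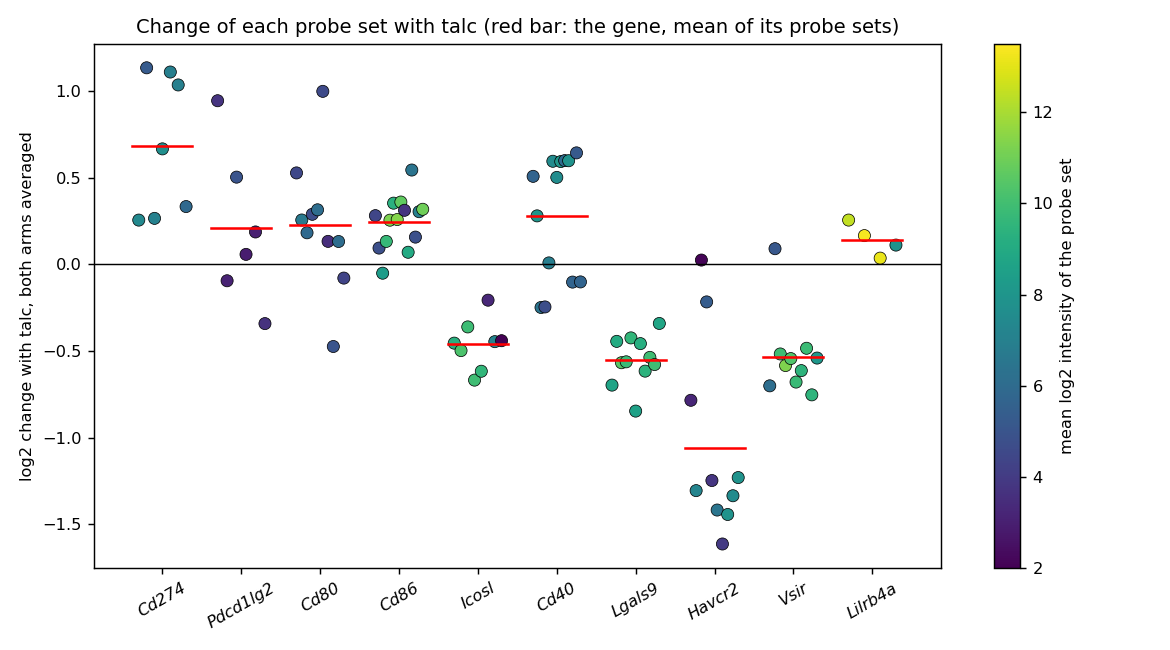
Each point is a probe set of a gene, plotted by its log2 change with talc averaged over both arms and coloured by its mean log2 intensity; the red bar is the gene's value. The probe sets of Lgals9 and Icosl all lie below 0, as do 9 of 10 of Vsir, those of Cd274 are all above 0, and those of Cd40 lie on both sides of 0.

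The genes whose levels followed each changed gene most closely over the 18 arrays, among genes above the median level, are given as a description, since the arrays share their groups. For Cd274 these were Abce1, a ribosome recycling factor (Pearson r 0.936), Cd300ld (0.935) and Ubxn4 (0.929). For Icosl they were Wdr6 (r 0.937), the hypoxia-inducible factor gene Epas1 (0.929) and Abhd14b (0.919), and for Lgals9 the phosphatase gene Ctdsp2 (0.940), the lysosomal sulfamidase Sgsh (0.933) and Haus5 (0.932). For Havcr2 they were Mr1, which presents metabolites to MAIT cells (r 0.953), Coro6 (0.950) and the cell cycle regulator E2f8 (0.947). For Vsir they were the lysosomal arylsulfatase gene Arsb (r 0.974), the urea transporter gene Slc14a1 (0.973) and Emilin2 (0.967).

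Other genes of these pathways came from lists also drawn up with earlier results known. In the CD40 signalling list, of 16 measured, 9 rose and none fell over both arms, with a median change of 0.31 log2 units, against 7.92% of all genes called higher and a median of 0.01; 8 rose and none fell in each arm alone. Traf1, a TRAF adaptor, rose by 1.03 ± 0.07 (adjusted p = 1.3e-07, limma), and Tnfaip3 (A20, a brake on NF-kB) by 0.82 ± 0.09. Nfkb2, a precursor of the non-canonical pathway, rose by 0.71 ± 0.07 and Birc3, a ubiquitin ligase of the TRAF complexes, by 0.68 ± 0.08. These genes act downstream of several receptors, and Cd40 itself did not pass.

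Of 17 interferon-gamma, STAT and IRF genes measured out of 19 listed, 1 rose and 2 fell, with a median of -0.02, against 7.92% of all genes called higher and 6.87% lower. Stat6, which signals for interleukin-4, rose by 0.33 ± 0.06, while Stat2 and Irf1, both of interferon signalling, changed by -0.41 ± 0.07 and -0.25 ± 0.08 (adjusted p = 0.0343, limma). Of 11 genes of PD-L1 protein turnover 2 rose and none fell, with a median near 0, against the same shares of all genes. These were Cops5 (CSN5, a deubiquitinase that stabilises PD-L1) at 0.52 ± 0.07 and Gsk3b (a kinase that marks it for degradation) at 0.35 ± 0.08.

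A list of 20 genes held other ligands of the B7, nectin, CD47 and CD200 groups and further molecules such as Icam1 and H2-T23. Of these 2 rose and 1 fell, with a median of -0.05. In this comparison 14.8% of all genes were called, 7.92% higher and 6.87% lower, and the count in this list is near that share. The other lists of this paragraph are small, and their counts are set against the same shares. Icam1, an adhesion ligand of LFA-1, rose by 0.79 ± 0.06 (adjusted p = 2.3e-07, limma) and Pvr (CD155, a ligand of TIGIT and CD226) by 0.44 ± 0.07. H2-T23 (Qa-1, a ligand of NKG2A) changed by -0.72 ± 0.10. Of 7 costimulatory ligands of the TNF family 2 fell, Tnfsf14 (LIGHT) by a change of -0.66 ± 0.13 and Tnfsf9 (4-1BB ligand) by one of -0.25 ± 0.06. Of 15 genes in a list named for inhibitory receptors of myeloid cells 2 rose and 4 fell. That name does not hold for every gene in the list, Lilr4b among them. Fcgr2b, the inhibitory IgG receptor, changed by -0.65 ± 0.06 and Siglece, a sialic acid receptor, by -0.65 ± 0.13, while Clec12a and Lilr4b each rose by 0.38. Of 12 T cell partners of the ligands 1 fell, Cd28, from 7.34 to 6.91 log2 units (adjusted p = 0.0118). No gene of these lists passed in limma for TiO2 or for estradiol averaged over the arms, where 0% of all genes did.

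**Figure D4:**
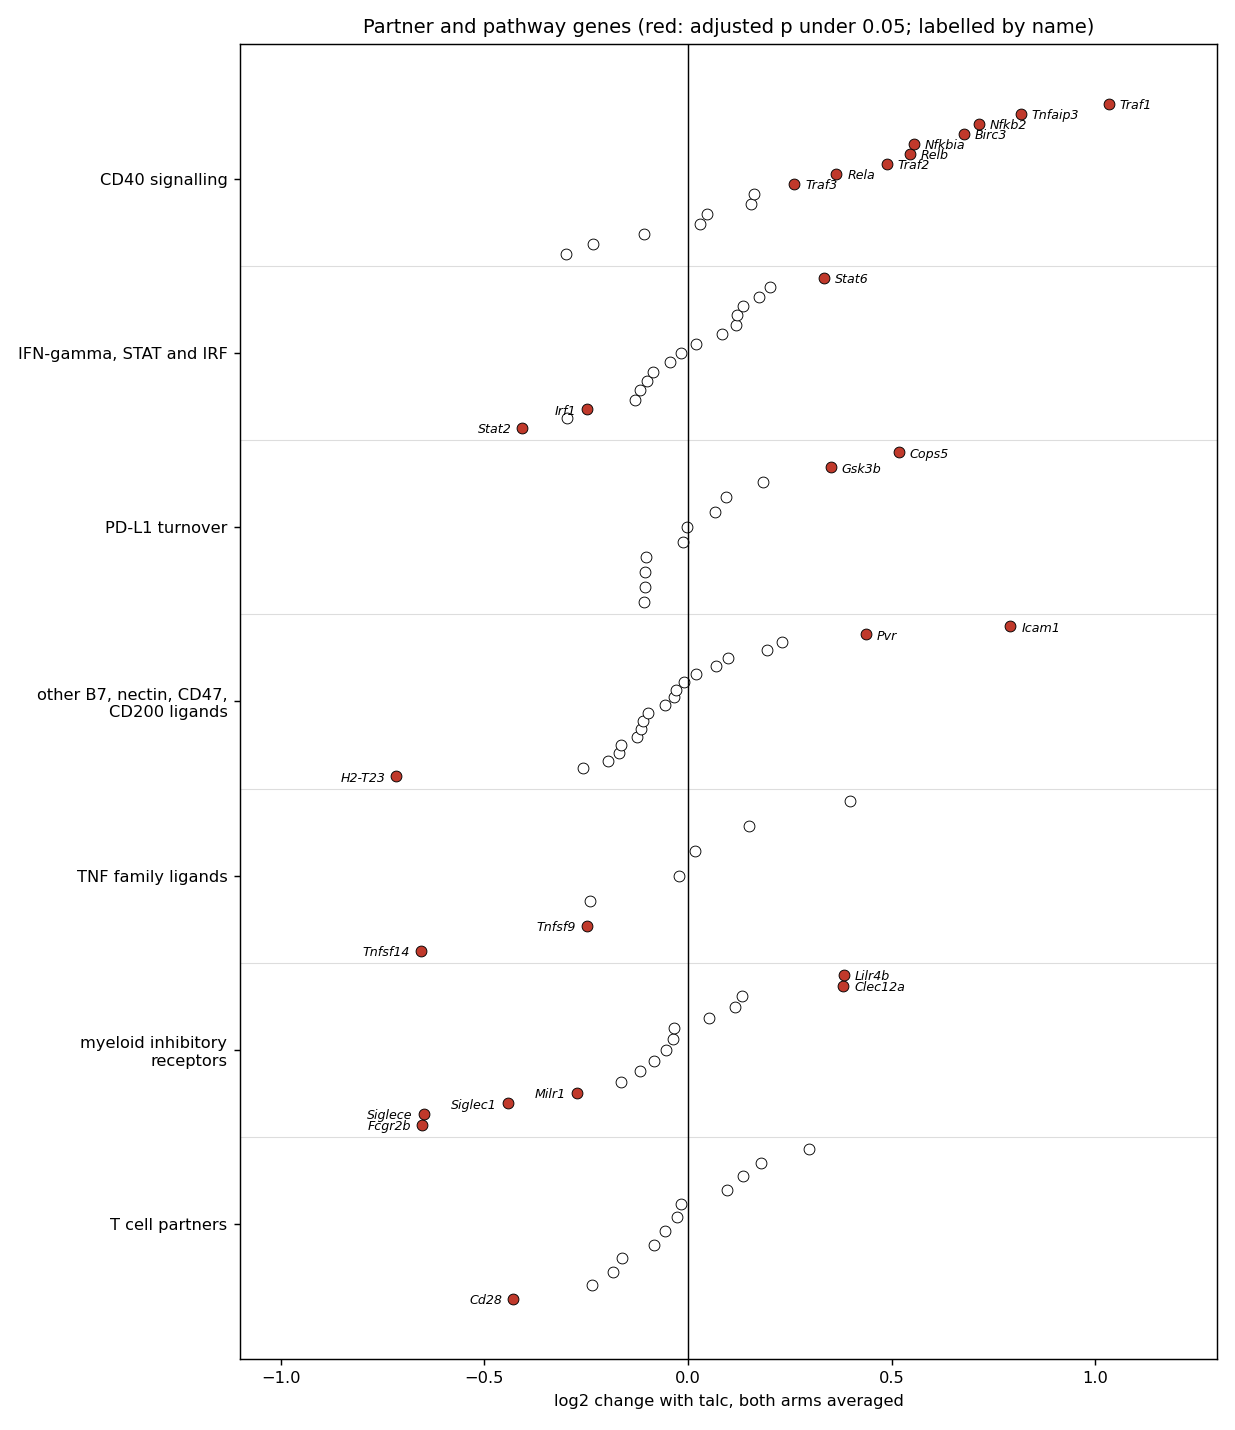
Points are the measured genes of 7 lists, placed by their log2 change with talc averaged over both arms; red points passed at an adjusted p under 0.05 (limma) and carry their names. In the CD40 signalling list 9 of 16 points are red and all of these are above 0, while the other lists spread on both sides of 0.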

How the data were processed

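Total RNA of 18 samples of J774 cells was hybridised to Affymetrix arrays. The deposited values are a linear intensity per probe set and array, made by the authors with RMA per the submitters' processing notes; its version, the level of summary and the step back from the log2 scale are not given in the sources used here. Arrays were grouped by the labels. Log2 was taken here, and a gene's value is the mean of its probe sets that carry 1 symbol (233753 of 269751; 5106 carried several and 30892 none), with 2247 symbols updated to RefSeq names; Vsir and Lilrb4a carried older symbols. Probe sets that move apart cancel in such a mean, and dim ones that change little make its change smaller. A fold given here is that of this mean. All 18 arrays entered a single model with a mean for each group (limma 3.58.1 in R 4.3.3, and data.table in version 1.17.8 for reading), with 12 residual and 4.57 prior degrees of freedom, for 14 contrasts, each adjusted over 23102 genes (Benjamini-Hochberg, two-sided, called under 0.05); the script was tested on simulated data. No gene was filtered out. For arrays, their number limits the precision.

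The members and lists were chosen with earlier results of these data known. Named genes were the 10 members, up to 4 called genes of each list with the smallest p for talc over both arms, and the 3 genes most correlated with each called member, without predicted genes. Alternatives were the median or the brightest probe set, genes above the median level, quantile normalization, subtracted array medians, only the arrays compared, trended and robust variances, and leaving out each array. Marker lists of other cell types were described by their levels, and some listed genes were not analysed here.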

Additional observations from a re-analysis of the deposited data

How the results depend on the processing

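The 22 gene results called were refitted under 25 settings each: of 550 values 484 kept their call, 66 lost it and none changed sign. Of the results not called, only the 6 that gained a call under some setting are counted here, so some gains were certain beforehand. Results never called under any setting are left out of this count. Of the 150 values of these 6, 125 stayed uncalled, 23 gained a call and 2 changed sign. With the median of probe sets, Cd86 in talc plus estradiol against TiO2 plus estradiol was -0.15 (adjusted p = 0.8, limma). Cd40 with talc over both arms was -0.022 (adjusted p = 0.967). Leaving out arrays of neither group was an alternative chosen after seeing the data, as was leaving out the array with the lowest upper quartile. The 25 settings include leaving out arrays of neither group. Those refits keep the size of the change and alter only the estimated spread and the adjustment. Genes above the median level, only the arrays compared, and trended and robust variances do the same. For all of these settings a change of sign was not possible.

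Counts of the 10 genes called moved by over 1.5 times as follows; the cause was not tested. With the median of probe sets, 3 were called for talc against vehicle (5 in the report), 2 for talc plus estradiol against estradiol (4), 3 for talc against TiO2 (5) and 1 for talc plus estradiol against TiO2 plus estradiol (3). With the brightest probe set the first 3 of these were 2, 1 and 3. Fitting only the arrays compared gave 2 for talc plus estradiol against estradiol, 3 for talc against TiO2 and 0 for talc plus estradiol against TiO2 plus estradiol. For this last comparison genes above the median level, with 9 of the 10 tested, gave 5, and trended, robust variances gave 5. Each array of the compared groups was also left out in turn. The counts then ran from 4 to 5, 1 to 3, 2 to 5 and 1 to 3 in that order. They ran from 5 to 6 for talc over both arms, and from 0 to 0 in the other comparisons. Without TiO2 replicate 1, an array of neither group, 5 were called for talc plus estradiol against estradiol. The same refit gave 4 for talc plus estradiol against TiO2 plus estradiol. No paired analysis was possible because the labels number arrays through all groups and the replicate numbers used here were given in accession order.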
